A study of Homo sapiens with 42 samples.

Results

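The promoters of 45 E2F and cell cycle genes were followed by ATAC-seq in 4 EGFR-mutant lung cancer cell lines. The members were the regions annotated to these genes within 1 kb of a transcription start. There were 269 such regions of 1712125 regions in all. PC9 had 85 for 44 genes, H1975 75 for 43, HCC827 45 for 38 and HCC2935 64 for 43. All of them had enough counts to be tested. MCM2 had a member region in none of the lines, and AURKA had one in PC9 only. HCC827 also lacked member regions of E2F2, GINS1, TYMS, CCNE1 and KIF11.

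The study compared drug-tolerant persister cells (DTP), the cells that outlive a long exposure to the EGFR inhibitor osimertinib, with control cells of the same line. DTP cells had received 500 nM osimertinib for 24 days. The DMSO controls were cultured drug-free for 21 days, followed by the vehicle DMSO for 3 days. DTP + AZD5153 cells received 500 nM osimertinib during 21 days, and during the next 3 days 150 nM of AZD5153, a small-molecule inhibitor. PC9 and NCI-H1975 (here H1975) also had cells given 150 nM AZD5153 for 3 days after 21 days without drug. HCC827 and HCC2935 had no such group. This gave 14 groups of 3 libraries, 42 in all. The labels call the libraries biological triplicates but leave unstated if osimertinib was present during the AZD5153 days.

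E2F factors bind promoters of genes for DNA replication and the start of S phase. In resting cells RB and its relatives hold these genes down, partly through the DREAM complex, and cyclin-dependent kinases release them when cells divide. Genes of G2 and mitosis carry a CHR element, often beside CCAAT boxes bound by NF-Y, through which DREAM represses them and MYBL2 and FOXM1 activate them. ATAC-seq counts insertions of a transposase into accessible DNA, so it reads whether a promoter is accessible and not how much RNA is made from it.

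The promoters below are those of 7 members of several roles. As printed, those of CDC6, RRM2 and CCNA2 hold no match to an E2F site or a CHR element. RRM2 and CDK1 have a further start downstream, whose stretch is not printed. The 250 bases before it hold 3 CCAAT boxes in RRM2, and 1 E2F site, 2 CHR elements and 2 CCAAT boxes in CDK1. Each line holds the 250 bases upstream of the RefSeq start that lies farthest upstream (GRCh38.p14), 5′ to 3′ on the gene's strand, with matches to an E2F site, a CHR element or a CCAAT box in capitals. E2F1 lies at chr20:33686386-33686635 (minus strand), CDC6 at chr17:40287629-40287878 (plus), RRM2 at chr2:10122318-10122567 (plus), CCNA2 at chr4:121823884-121824133 (minus), CDK1 at chr10:60778081-60778330 (plus), PLK1 at chr16:23678639-23678888 (plus) and MKI67 at chr10:128126424-128126673 (minus).
E2F1: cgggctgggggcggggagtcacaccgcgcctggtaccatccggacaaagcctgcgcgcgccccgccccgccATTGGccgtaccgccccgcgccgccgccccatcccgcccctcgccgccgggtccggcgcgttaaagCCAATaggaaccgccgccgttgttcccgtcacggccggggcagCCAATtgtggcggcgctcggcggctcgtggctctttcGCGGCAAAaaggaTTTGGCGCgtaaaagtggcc
CDC6: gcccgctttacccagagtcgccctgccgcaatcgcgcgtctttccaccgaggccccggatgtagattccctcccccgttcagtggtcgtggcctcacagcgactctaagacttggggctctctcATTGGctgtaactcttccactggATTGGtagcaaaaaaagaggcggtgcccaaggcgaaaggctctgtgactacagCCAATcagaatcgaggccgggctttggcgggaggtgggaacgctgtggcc
RRM2: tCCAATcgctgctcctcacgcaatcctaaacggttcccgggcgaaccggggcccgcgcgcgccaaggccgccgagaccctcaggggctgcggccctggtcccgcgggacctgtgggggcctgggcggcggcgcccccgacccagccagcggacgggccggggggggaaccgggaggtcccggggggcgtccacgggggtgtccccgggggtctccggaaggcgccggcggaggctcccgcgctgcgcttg
CCNA2: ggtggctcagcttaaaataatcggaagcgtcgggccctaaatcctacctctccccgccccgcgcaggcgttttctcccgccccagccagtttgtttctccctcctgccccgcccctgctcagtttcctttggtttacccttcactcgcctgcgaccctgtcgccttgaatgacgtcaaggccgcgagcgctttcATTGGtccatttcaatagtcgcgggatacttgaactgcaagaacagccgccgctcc
CDK1: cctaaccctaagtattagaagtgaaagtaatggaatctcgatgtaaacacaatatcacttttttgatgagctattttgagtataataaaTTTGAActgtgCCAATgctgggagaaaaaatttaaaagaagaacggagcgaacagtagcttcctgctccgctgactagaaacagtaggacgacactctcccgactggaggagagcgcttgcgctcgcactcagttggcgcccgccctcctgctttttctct
PLK1: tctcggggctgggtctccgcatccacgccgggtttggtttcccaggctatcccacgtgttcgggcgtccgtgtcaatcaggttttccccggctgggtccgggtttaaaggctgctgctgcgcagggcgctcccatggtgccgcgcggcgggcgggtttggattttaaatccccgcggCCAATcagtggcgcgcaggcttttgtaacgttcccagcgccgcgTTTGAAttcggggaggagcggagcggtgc
MKI67: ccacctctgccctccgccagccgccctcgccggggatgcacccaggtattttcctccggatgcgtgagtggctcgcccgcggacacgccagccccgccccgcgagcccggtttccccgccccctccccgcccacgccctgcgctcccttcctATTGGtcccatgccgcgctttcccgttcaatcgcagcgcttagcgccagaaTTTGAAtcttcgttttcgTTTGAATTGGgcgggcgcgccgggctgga

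E2F sites were searched as TTTCCCGC, TTTCGCGC, TTTGGCGC and TTTGCCGC, CHR elements as TTTGAA and TTCGAA, and CCAAT boxes as CCAAT, each on both strands. The window ran from 250 bases before to 50 bases after the start, so some matches lie outside the stretches printed. RefSeq promoters were matched for 36 of the 45 members. An E2F site was found in 17 of these 36, against 3.99% of the 27305 genes of the promoter table. A CHR element was found in 12 of 36 (19.5% of all genes), and a CCAAT box in 29 of 36 (39.7% of all genes). The sites divided by role. Among members acting up to S phase 16 of 22 had an E2F site and 3 of 22 a CHR element, whereas among members acting from S phase to mitosis 1 of 14 had an E2F site and 9 of 14 a CHR element. In E2F1 the E2F sites start at -33 and -20 from the start. In PLK1 the CHR element lies at -29, with a CCAAT box at -73, and in MKI67 the CHR elements lie at -47 and -29, the latter overlapping a CCAAT box.

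The PC9 libraries held 3989287 to 5193390 counts, those of H1975 6200672 to 10062505, those of HCC827 1724680 to 4242868 and those of HCC2935 3968690 to 8066287. The member regions together held 4573 to 6811, 8504 to 12899, 1459 to 4117 and 3709 to 9246 counts per library. Replicates differed in spread between lines. The biological coefficient of variation was 3.20% for H1975, 10.1% for HCC2935 and 45.05% for HCC827. For PC9 it came out at 0.988%, the lowest value of edgeR's search, and is no estimate of the spread. In PC9 9 of 12 pairs of libraries of a group, and in H1975 5 of 12, differed by no more than counting noise, so that p-values in these lines measure a spread that may be technical. Each comparison there is therefore also given with the 3 libraries of a group summed to 1 sample and the dispersion of HCC2935. In HCC827 replicate 3 had the highest share of counts in promoters in every group, and the share ran from 15.7% to 29.5% over its libraries. The 7 epithelial markers (EPCAM, CDH1, KRT8, KRT18, KRT19, CLDN4 and CLDN7) had promoter regions in every line, and none of 4 leukocyte markers had one. Of 3 endothelial and 4 fibroblast markers, 0 to 2 of each had a region in a line. The H1975 libraries labelled AZD5153 stood apart. Their 7 epithelial promoters summed to 86.9 to 96.4 CPM, against 245 to 264 in DMSO, 197 to 205 in DTP and 240 to 245 in DTP + AZD5153. Their endothelial promoters (CDH5 and PECAM1) summed to 3.99 to 4.53 CPM, against 22.5 to 28.1 in DMSO. Their regional medians against DMSO in 10-Mb windows ranged from -1.14 to 1.37 on the log2 scale (SD 0.365), against an SD of 0.0570 in PC9.

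All regions had the same length, so levels were not divided by length. Other differences between loci, such as copy number, were not corrected for, so an order of genes is an order of counts. Levels are given as TMM-scaled CPM, in which a library's counts are set to a common total, and each gene is followed through its lead region, the member region with the most counts in the line. In DMSO cells most of these promoters were above the middle of the promoters with a region. Ranked among the best promoter region of every gene, the members had a median percentile of 64.0 for PC9, 66.6 for H1975, 63.5 for HCC827 and 69.4 for HCC2935. E2F3, an activator E2F, was highest in PC9 at 61.4 ± 1.97 CPM (SD, n = 3) and in HCC2935 at 79.8 ± 8.21. MCM7, a subunit of the replicative helicase, led in H1975 at 63.4 ± 3.80, and CDC20, the mitotic activator of the anaphase-promoting complex, led in HCC827 at 73.1 ± 15.2. The lowest were E2F2 in PC9 (6.81 ± 1.39), the late transcription factor FOXM1 in H1975 (5.19 ± 0.998) and the G1/S cyclin CCNE2 in HCC2935 (2.91 ± 1.01). Neighbours in these orders often differed by less than their spread, as E2F3 and MCM3 did in HCC2935, where MCM3 had 74.0 ± 10.1.

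A peak was called by the authors over every lead region in every library of PC9 (44 genes) and of H1975 (43 genes), DTP and DTP + AZD5153 libraries included. Lead regions were chosen by their counts over all libraries. Peaks over other promoters were not counted, so no trait of the members is read from these counts. The peak lists held 127720 to 174356 peaks per library in PC9 and 130806 to 224437 in H1975. In HCC2935 all 43 lead regions had a peak in all 3 DMSO and all 3 DTP libraries, and 41 had one in all 3 DTP + AZD5153 libraries, the exceptions being CDT1 and TYMS. In HCC827 33, 32 and 33 of 38 lead regions had a peak in all 3 libraries of DMSO, DTP and DTP + AZD5153. When a peak had to cover at least 50% of the region, the counts fell to 29 of 44 in PC9 DMSO and 36 in PC9 DTP, 36 and 35 of 43 in H1975, and 23 and 27 of 43 in HCC2935. In HCC827 they fell furthest, to 9, 7 and 6 of 38 in DMSO, DTP and DTP + AZD5153.

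**Figure D1:**
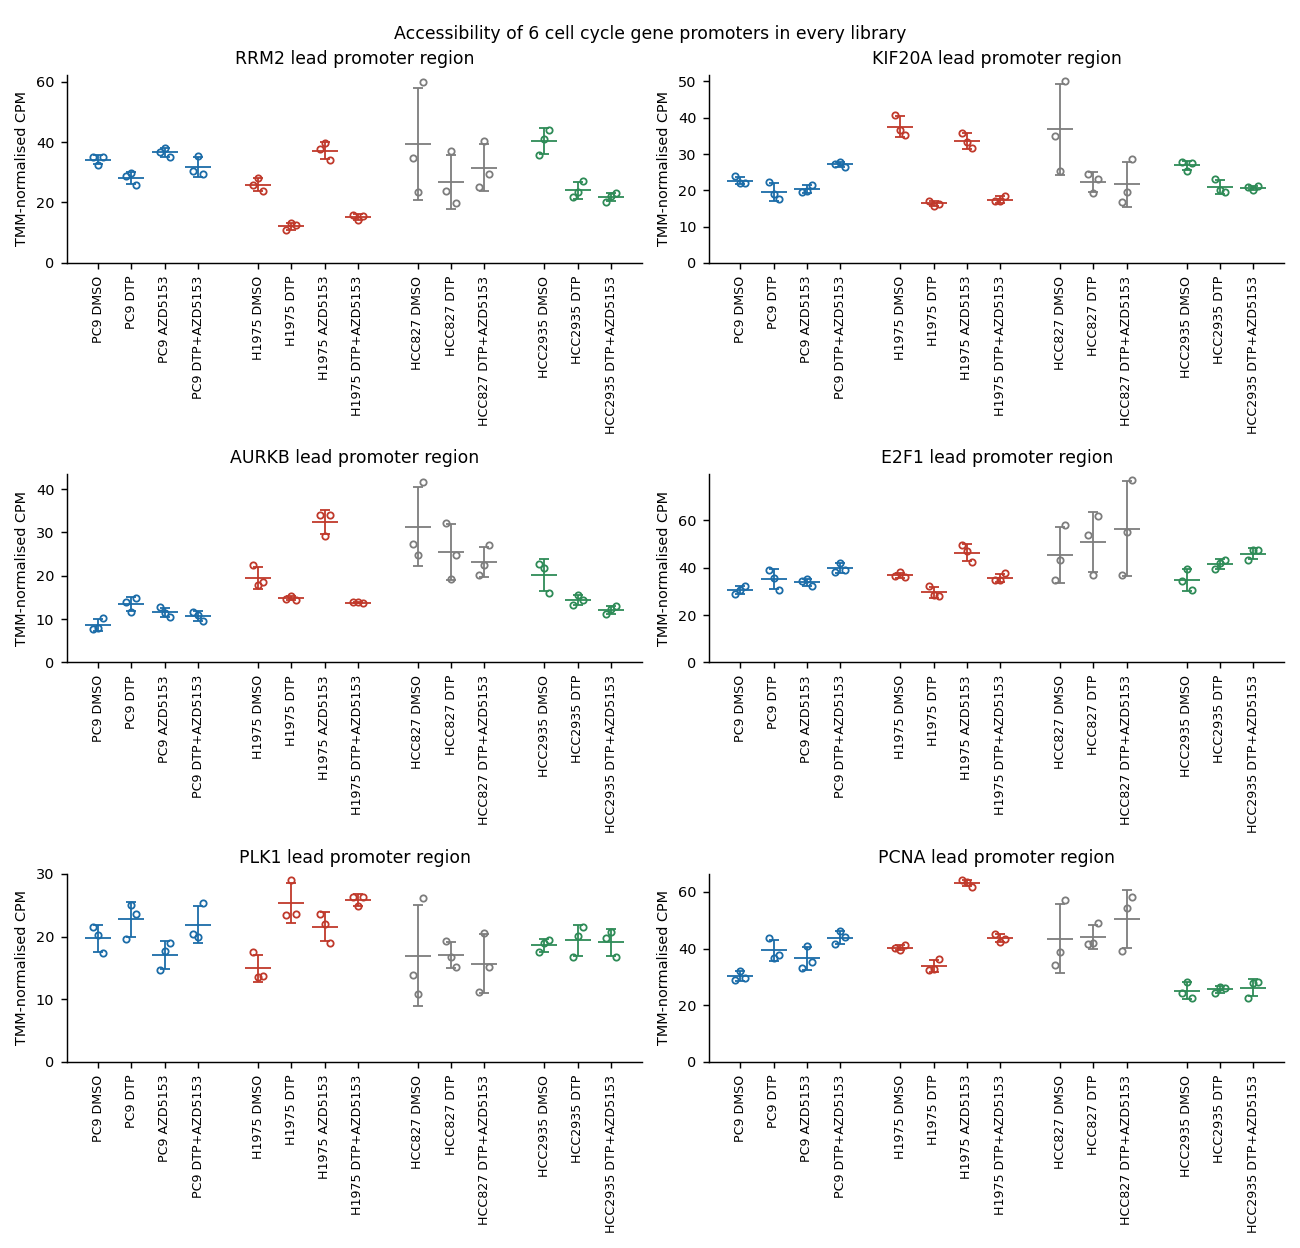
Accessibility of 6 member promoters in all 42 libraries. Each point is 1 library, the vertical axis is the level in CPM, and bars give the mean ± SD of the 3 libraries of a group. RRM2 and KIF20A lie lower in the DTP than in the DMSO libraries of H1975 without overlap, while PLK1 lies higher there.

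Whether these promoters remained accessible in persisters was read from DTP minus DMSO, first as the interval of each fold change and then as calls. The 95% interval of the lead region's log2 fold change was above -1, the value of a fall to 50%, in 44 of 44 genes in PC9, 39 of 43 in H1975 and 41 of 43 in HCC2935. In these bulk libraries, accessibility in fewer cells and less accessibility per cell cannot be told apart. A fall by more than 1.5-fold was outside the interval for 43, 28 and 34 genes. Intervals of other promoters were not counted, so nothing particular to the members is read from these counts. Over all promoter regions the 10th percentile of the estimates was -0.43 in PC9, -0.60 in H1975 and -0.53 in HCC2935. The PC9 intervals rest on a dispersion that is no estimate of the spread, and they were not recomputed with libraries summed. Only KIF20A in H1975 had its whole interval below -1, from -1.36 to -1.004. In HCC827 the median standard error was 0.342, and the interval was above -1 in 28 of 38 genes and above a 1.5-fold fall in 13.

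**Figure D2:**
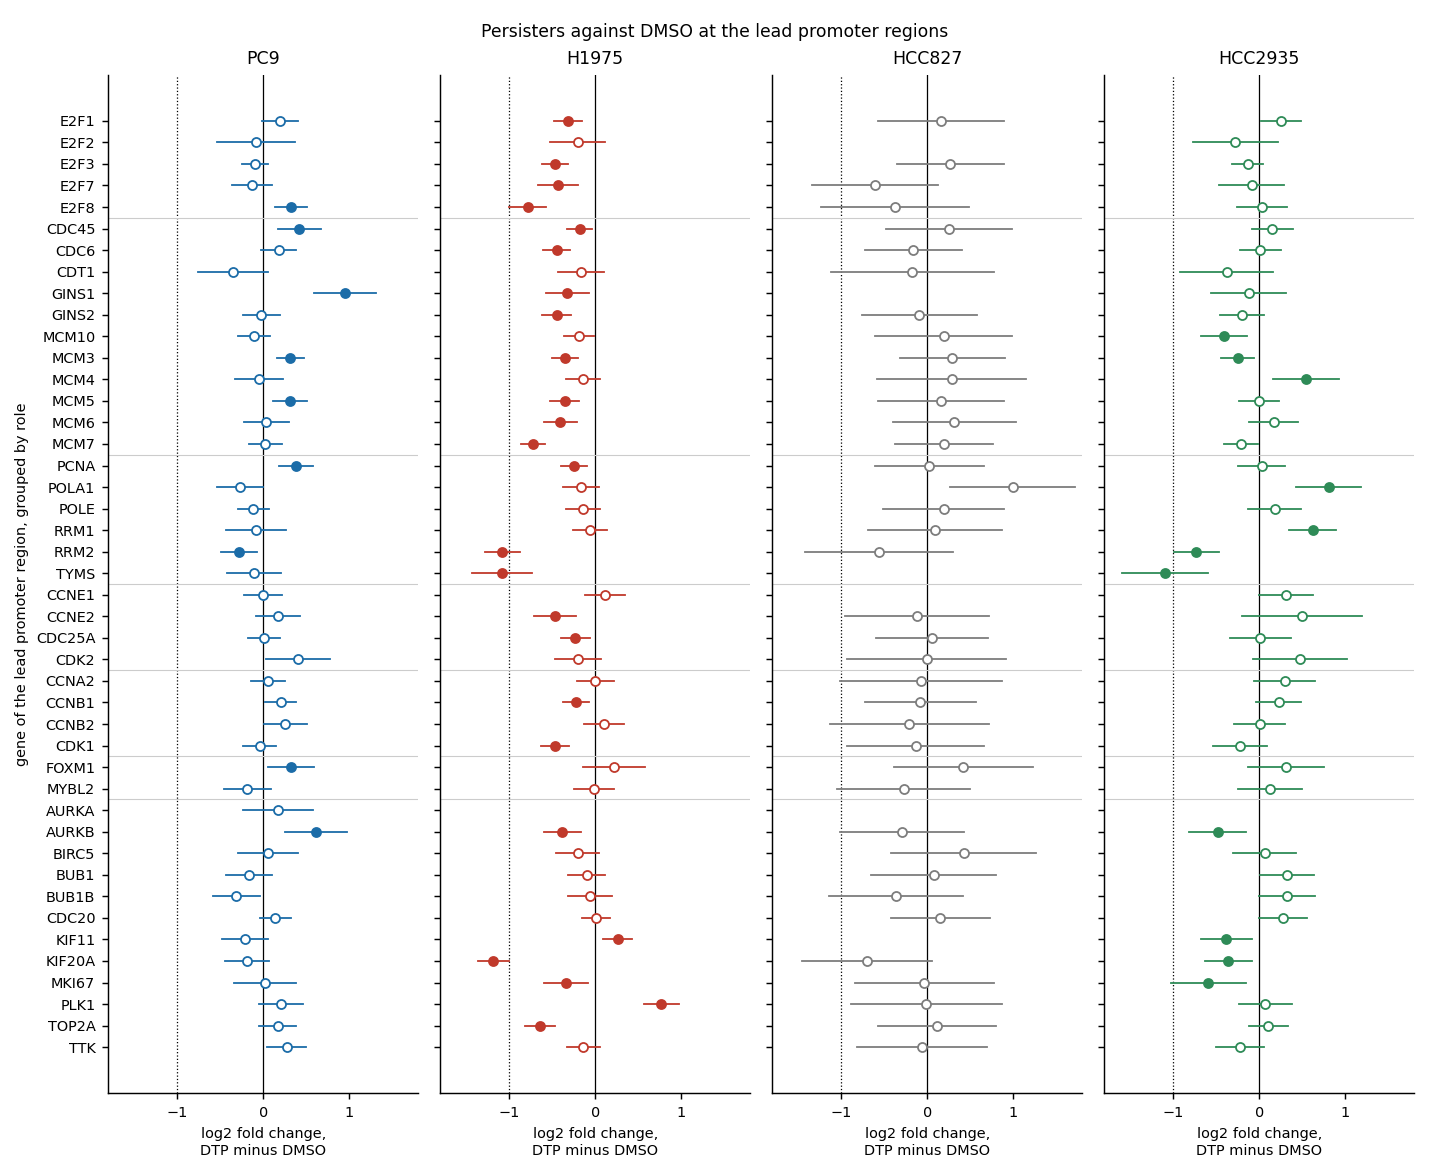
Log2 fold change of each member's lead region, DTP minus DMSO, by role and line. Points are estimates with 95% intervals, filled points passed an adjusted p of 0.05, and the dotted line marks -1. Most intervals in PC9 and HCC2935 lie above the dotted line, the H1975 points lie mostly below 0, and the HCC827 intervals are the widest.

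In PC9 a smaller share of member promoters was called than of all regions, and the difference was not tested. Of 85 regions 19 passed the test, 13 higher and 6 lower in DTP, where 31.7% of all regions and 26% of regions within 1 kb of a start passed. The median log2 fold change was 0.038 over the member regions and 0.050 over all promoter regions. Of the 44 lead regions 8 were higher and 1 lower. GINS1, a subunit of the GINS complex of the replicative helicase, had 9.85, 7.35 and 6.45 CPM in DMSO and 14.6, 12.9 and 18.8 in DTP. Its groups did not overlap, and it rose by 0.95 ± 0.18 (SE, adjusted p = 9.7e-07, edgeR's quasi-likelihood test). AURKB, the kinase of the chromosomal passenger complex, had 7.63, 7.86 and 10.2 CPM in DMSO and 13.9, 11.6 and 14.8 in DTP, a rise of 0.61 without overlap. PCNA, the sliding clamp of DNA polymerase, had 28.9, 32.2 and 29.5 CPM in DMSO and 43.7, 36.9 and 37.8 in DTP, a rise of 0.38 without overlap. The other rises were CDC45 (0.42) and MCM5 and MCM3 (both 0.32) of the helicase, the atypical repressor E2F8 (0.33) and FOXM1 (0.32). The call was lost for E2F8 without DTP replicate 3 (0.24), for CDC45 without DMSO replicate 2 (0.32), and for FOXM1 without replicate 1 or 2 of DMSO or 1 or 3 of DTP (0.23 to 0.31).

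RRM2, the small subunit of ribonucleotide reductase, was the lead region that fell in PC9. It had 34.9, 32.5 and 35.0 CPM in DMSO and 28.7, 29.6 and 25.8 in DTP, without overlap, a log2 change of -0.28 ± 0.11 (adjusted p = 0.032). The median change of its 10-Mb window was -0.34, and with such window medians removed RRM2 was at 0.088 and not called. Its call was also lost without replicate 1 or 3 of DMSO or of DTP (-0.30 to -0.22). CCNE1, cyclin E1, had 28.0, 26.1 and 30.8 CPM in DMSO and 26.0, 30.4 and 28.5 in DTP, with overlap, while its window had a median of 0.61. CCNA2, CDK1, PLK1, MKI67, E2F1 and CDC6 were not called in PC9, at 0.06, -0.04, 0.21, 0.02, 0.20 and 0.18. With the libraries summed 5 member regions were called, and GINS1 was the 1 lead region among them. Scaling by library size alone gave 20 higher and 4 lower, loess offsets 19 and 4, and TMM on promoter regions only gave 11 and 8.

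In H1975 most of the members called were lower in persisters. Of 75 regions 40 passed, 7 higher and 33 lower, where 51.9% of all regions and 49.9% of promoter regions passed. The lower calls made up 44.0% of member regions against 23.1% of promoter regions, and the higher calls 9.33% against 26.8%. The median log2 change was -0.18 for members and 0.047 for promoters. The difference between both sets was not tested. The split depended on the scaling. Library size alone gave 19 higher and 18 lower with a median of 0.019, loess offsets gave 13 and 21 with a median of 0.0033, and the authors' annotated regions alone gave 13 and 27. Of the 23 lead regions called lower, 13 were lower under library size and 13 under loess offsets.

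KIF20A, a mitotic kinesin of cytokinesis, fell furthest among the lead regions of H1975. It had 40.8, 36.7 and 35.2 CPM in DMSO and 17.1, 15.7 and 16.3 in DTP, far apart, a log2 change of -1.18 ± 0.091 (adjusted p = 2.1e-28). RRM2 had 25.7, 28.2 and 23.9 CPM in DMSO and 10.7, 13.0 and 12.5 in DTP, also without overlap, at -1.08 ± 0.11. TYMS, thymidylate synthase, had 9.28, 7.94 and 8.49 CPM in DMSO and 3.71, 3.52 and 4.48 in DTP, at -1.08 ± 0.18. These promoters thus lost accessibility in all 3 libraries, and their peaks were still called. E2F8 (-0.78), MCM7 (-0.72) and the topoisomerase TOP2A (-0.64) followed. Those 6 falls were called under all 17 alternatives, the summed libraries and every scaling included. With window medians removed RRM2 was at -0.91 and KIF20A at -1.16.

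By role, 4 of 5 E2F factors fell in H1975 with a median of -0.43, and none rose. E2F1, an activator, had 36.5, 38.1 and 36.1 CPM in DMSO and 32.4, 28.5 and 28.1 in DTP (-0.32). Of the 11 licensing and helicase genes 8 fell and none rose, with a median of -0.35, among them CDC6, which loads the helicase, with 43.4, 40.1 and 41.4 CPM in DMSO and 29.3, 31.5 and 30.3 in DTP (-0.45). The groups of both genes were apart. Of the 6 genes of DNA synthesis 3 fell, PCNA at -0.25 beside RRM2 and TYMS. Of the G1/S cyclins and kinase genes 2 of 4 fell and of the S to M cyclins and kinase 2 of 4, including CDK1, the mitotic kinase, with 36.3, 36.3 and 36.0 CPM in DMSO and 24.2, 27.4 and 26.5 in DTP (-0.47). Its groups were apart. Neither MYBL2 nor FOXM1 was called. Under library size and under loess offsets the calls of E2F1 (-0.12 and -0.10), PCNA (-0.05 and -0.02), MCM5, CDC45, GINS1, CDC25A and CCNB1 were lost. That of MCM3 was lost under loess offsets only and that of E2F7 under library size only, while CDC6, MCM6, MCM7, GINS2 and CDK1 were called under both.

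The mitotic genes of H1975 moved both ways, with 4 of 11 lower and 2 higher. MKI67, which encodes Ki-67, had 12.4, 12.4 and 12.5 CPM in DMSO and 10.2, 9.98 and 9.18 in DTP, a log2 change of -0.34 without overlap, which was not called without DTP replicate 3 (-0.29) or under either scaling by library size or loess. PLK1, the mitotic Polo-like kinase, rose instead, from 17.5, 13.6 and 13.8 CPM to 23.4, 29.0 and 23.6 without overlap, by 0.77 ± 0.10 (adjusted p = 1.3e-11), in all 17 alternatives. KIF11, the spindle kinesin, rose by 0.26. CCNA2, cyclin A2, was at 15.6, 16.9 and 17.4 CPM in DMSO and 15.1, 18.3 and 16.6 in DTP, a difference of 0.0001 with an interval inside a 1.5-fold change. With libraries summed 12 member regions were called, 7 of them lead regions.

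In HCC2935 19 of 64 member regions passed, 6 higher and 13 lower, where 37.3% of all regions and 33.1% of promoter regions passed. Lower calls were 20.3% of member regions against 11.9% of promoters, and higher calls 9.38% against 21.2%. The median was -0.11 for members and 0.13 for promoters. Among the members it was 0.028 for the 43 lead regions, of which 25 were above 0, and -0.27 for the 21 other regions. TMM on promoter regions gave 5 higher and 19 lower, and removing window medians left 12 calls. Of 43 lead regions 3 were higher and 8 lower. TYMS had 12.7, 9.74 and 7.82 CPM in DMSO and 4.37, 3.97 and 5.53 in DTP, without overlap, at -1.09 ± 0.25 (adjusted p = 0.00021), and at -1.41 with window medians removed. RRM2 had 35.8, 41.0 and 44.1 CPM in DMSO and 21.7, 23.3 and 27.1 in DTP, without overlap, at -0.73 ± 0.13. Its window had a median of -0.63, and with it removed the difference was -0.18 and not called. MKI67 had 10.5, 12.7 and 9.08 CPM in DMSO and 6.65, 7.28 and 7.06 in DTP, without overlap, at -0.59 ± 0.21, and it was not called without DMSO replicate 2 (-0.47) or DTP replicate 1 (-0.56), nor with window medians removed (-0.34).

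AURKB (-0.48), the replication factor MCM10 (-0.41), KIF11 (-0.38), KIF20A (-0.36) and MCM3 (-0.25) also fell in HCC2935. POLA1, the catalytic subunit of DNA polymerase alpha, rose from 7.64, 10.0 and 9.39 CPM to 15.2, 14.9 and 17.6 without overlap, by 0.80 ± 0.19. RRM1, the large subunit of ribonucleotide reductase, rose by 0.62 and MCM4, a helicase subunit, by 0.54. All 3 rises were in windows that rose, and none was called with window medians removed (0.36, 0.055 and 0.14), whereas AURKB, KIF20A and TYMS still were. MCM4 was also not called without DMSO replicate 3 (0.36) or DTP replicate 2 (0.53) or 3 (0.50). E2F8 had 22.7, 31.9 and 20.3 CPM in DMSO and 27, 25.1 and 24.2 in DTP, a difference of 0.03 with overlap, in a window with a median of 0.88. What moved whole windows was not tested. The lead regions of the E2F factors, the cyclins, CDK1, CDK2, FOXM1 and MYBL2 were not called in HCC2935, while a further region of E2F3 was lower (-0.39). The promoters of COL1A1 and COL1A2, 2 of 4 fibroblast markers, were called higher in the same comparison, summing to 26.0 to 28.0 CPM in DMSO and 42.5 to 48.4 in DTP, and their part in these results was not tested.

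**Figure D3:**
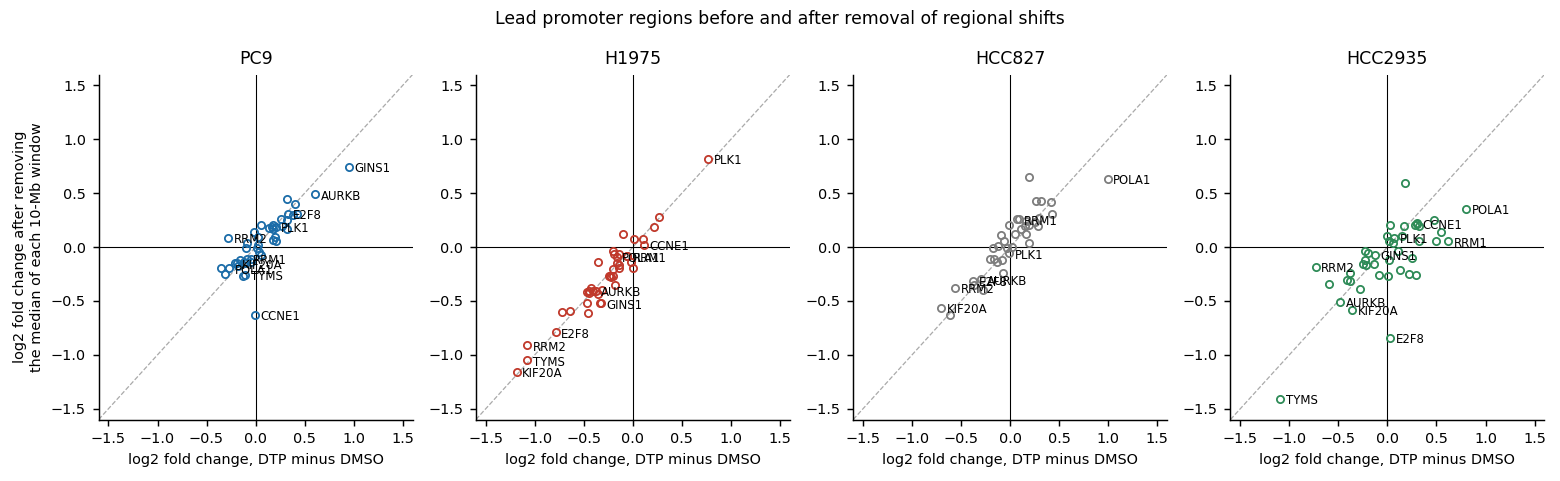
DTP minus DMSO log2 fold change of each lead region as fitted (horizontal axis) and after removal of 10-Mb window medians (vertical axis), by line. Points off the diagonal are genes whose window moved as a whole, such as RRM2 and E2F8 in HCC2935 and CCNE1 in PC9.

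In HCC827 0 of 45 member regions passed edgeR's test, where 0.0219% of all regions and 0% of promoter regions did. At an unadjusted p under 0.05 there were 2 member regions. Replicate numbers paired the libraries in this line, and with the replicate as a block 2 member regions passed, the lead region of POLA1 (0.97, adjusted p = 0.014) and a further region of E2F3 (-0.98, adjusted p = 0.033). With libraries summed 2 passed, judged against the dispersion of HCC2935, whose coefficient of variation of 10.1% is far below the 45.05% of HCC827 itself. POLA1 had 25.4, 25.4 and 32.0 CPM in DMSO and 40.8, 54.5 and 72.4 in DTP, without overlap, at 0.99 ± 0.33 without the block (adjusted p = 0.37). RRM2 had 34.9, 23.5 and 59.9 CPM in DMSO and 23.6, 36.9 and 19.9 in DTP, with overlap, at -0.56 ± 0.39. KIF20A was at -0.70 ± 0.35. Neither passed the test at this spread.

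The effect of osimertinib was then compared between lines in 1 fit over matched regions, which tested the interaction of DTP with line. Of 65 member regions matched and tested, 23 differed between lines, where 37.2% of all matched regions did. Without HCC827 the count was 38, where 46.0% of all matched regions differed. The test was not run by library size alone, with loess offsets or with window medians removed. Among lead regions 19 of 42 differed. GINS1 was at 1.00 in PC9 and at -0.26, -0.27 and -0.19 in H1975, HCC827 and HCC2935 (adjusted p = 0.00027). The HCC827 region matched to GINS1 is not itself a member region. E2F8 was at 0.38 in PC9 and -0.72 in H1975, and AURKB at 0.67 and -0.32 there, with -0.55 in HCC2935. POLA1 was at 1.12 in HCC827 and 0.74 in HCC2935 but -0.21 in PC9 and -0.10 in H1975 (adjusted p = 1.1e-05). PLK1 was at 0.81 in H1975 and between -0.03 and 0.26 in the other lines. RRM2 was lower in all 4 lines in this fit, at -0.22 (PC9), -1.01 (H1975), -0.64 (HCC827) and -0.80 (HCC2935), and the size differed (adjusted p = 0.031).

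Counted over the fits by line, 14 of 44 genes were called in no line, CCNA2, CCNE1, CDC20, BUB1B and MYBL2 among them. Among all promoter regions the share called was highest for H1975 (49.9%), then HCC2935 (33.1%) and PC9 (26%), and was 0% for HCC827. Genes outside the members were not counted across lines. No trait of the members is therefore read from the counts of calls and signs given here. RRM2 was called lower in 3 lines, and AURKB, KIF20A, MCM3, MKI67 and TYMS in 2. With window medians removed, RRM2 and MKI67 were called lower in H1975 only, and MCM3 in no line. No gene was called higher in 2 or more lines. Of the genes called, 8 were higher in 1 line and lower in another, namely AURKB, CDC45, E2F8, GINS1, KIF11, MCM3, MCM5 and PCNA. Under library size and under loess offsets the H1975 falls of AURKB, CDC45, GINS1, MCM5 and PCNA were not called. That of MCM3 was not called under loess offsets. AURKB was also lower in HCC2935, where its call held under both. The fall of KIF11 in HCC2935 was not called with window medians removed. Among the 38 genes with a lead region in all 4 lines, CDK1, CDT1, E2F7, GINS2, KIF20A and RRM2 had estimates below 0 in all 4, and CDC20 and FOXM1 above 0 in all 4. The lead regions of KIF20A and CDT1 did not share bases between all lines, unlike those of the other 41 genes seen in 2 or more lines.

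Neighbouring regions of 1 gene did not always move together, and the 3 genes given here were chosen after their values were seen. KIF20A had a second region in H1975 at chr5:138178405-138178906 (hg38), upstream of the lead region at chr5:138178921-138179422. It had 18.4, 17.9 and 16.2 CPM in DMSO and 18.8, 20.4 and 19.0 in DTP, a difference of 0.15 that was not called, while the lead region fell by 1.18. The lead region of BUB1, a spindle checkpoint kinase, overlapped between the groups of H1975, at 17, 16 and 16.9 CPM in DMSO and 13.6, 17.6 and 15.1 in DTP. A further region of BUB1 at chr2:110674504-110675005 had 7.89, 8.88 and 10.4 CPM in DMSO and 1.92, 1.25 and 2.80 in DTP, a log2 change of -2.05 ± 0.21 (adjusted p = 2.1e-20). The next region, chr2:110675121-110675622, went the other way, from 4.95, 3.63 and 4.45 CPM to 6.53, 7.37 and 7.72 (0.71). In HCC2935 a BUB1 region at chr2:110675140-110675641 rose by 1.85 ± 0.29, from 3.28, 2.66 and 1.56 CPM to 10.4, 8.27 and 12.6, and a region at chr2:110657609-110658110 rose by 1.74. These 4 BUB1 calls held in all 17 alternatives. In PC9 a region of RRM2 at chr2:10123771-10124272, downstream of its lead region, had 6.04, 6.34 and 4.22 CPM in DMSO and 2.67, 2.32 and 1.5 in DTP, without overlap. It was at -1.16 ± 0.33, and at -0.84 with window medians removed, where it was still called.

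The sequence classes were set beside the changes as a description. Classes were set by gene, from any of its RefSeq promoters, and not by the sequence of the lead region. In H1975, among genes with an E2F site, the lead regions of 0 of 16 were higher and 12 lower in DTP (median -0.34). Without such a site 2 of 19 were higher and 8 lower (median -0.10). The promoter of E2F1 printed above is of the first kind and those of PLK1 and MKI67 of the second. In PC9 the counts were 3 higher and 0 lower of 16 with a site, and 2 and 1 of 19 without. In HCC2935 they were 1 and 2 of 16, and 1 and 6 of 19. Of all promoter regions 26.8% were higher and 23.1% lower in H1975, 15.1% and 10.95% in PC9, and 21.2% and 11.9% in HCC2935. Other promoters with such a site were not counted, and among members site and role went together. The part of a site in the changes was not tested. PCNA was counted with a site, as lower in H1975 and higher in PC9. The promoter that held its site did not overlap its lead region in any line. That of CDT1, also counted with a site, did not overlap its lead region in PC9, H1975 or HCC827. For CHR elements in H1975 the counts were 2 higher and 5 lower of 12 genes with the element and 0 and 15 of 23 without. KIF11 was among the higher, and its CHR element lay outside its lead region. The H1975 split of member regions depended on the scaling, with 19 higher and 18 lower by library size alone. The sequence classes were not recounted under other scalings.

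Addition of AZD5153 to persisters was read from DTP + AZD5153 minus DTP. In H1975 24 of 75 member regions passed, 21 higher and 3 lower, where 21% of all regions and 34.5% of promoter regions passed. The median was 0.16 for members and 0.16 for promoters. The direction depended on scaling, since TMM on promoter regions gave 4 higher and 9 lower, loess offsets 2 and 6, and library size 11 and 5. With libraries summed 0 passed, and DESeq2 called 12. PCNA went from 32.5, 32.8 and 36.5 CPM to 45.1, 42.4 and 43.5, without overlap (0.36). TOP2A (0.48), CDC45 (0.43) and POLA1 (0.40) rose most among lead regions, and CDT1, which licenses origins with CDC6, fell (-0.44). RRM2 had 16.0, 14.2 and 15.6 CPM against 10.7, 13.0 and 12.5, a rise of 0.32, and remained below all 3 DMSO libraries. KIF20A, at 16.9, 17 and 18.5 CPM, and TYMS, at 3.80, 3.24 and 2.81, overlapped the DTP values, and both were below every DMSO library. Without DTP replicate 3, or without replicate 1 or 3 of DTP + AZD5153, 15 regions passed. The call of RRM2 was lost without DTP replicate 1 (0.25) or replicate 1 (0.29) or 3 (0.29) of DTP + AZD5153, and that of CDT1 without replicate 1 or 3 of DTP or 1 or 2 of DTP + AZD5153 (-0.42 to -0.33).

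In PC9 19 of 85 member regions passed for the same comparison, 13 higher and 6 lower, where 22.3% of all regions and 26.7% of promoter regions passed. Of the lead regions 12 were higher and 1 lower. RRM1 had 11.2, 11.1 and 11.3 CPM in DTP and 19.5, 17 and 23.2 with AZD5153, far apart (0.80 ± 0.15, adjusted p = 3.7e-06). KIF20A rose by 0.46, CDC6 by 0.41 and CDK1 by 0.34, and E2F8 fell by 0.29, a call lost without DTP replicate 3 (-0.20) or DTP + AZD5153 replicate 2 or 3 (both -0.26). Under loess offsets 6 were higher and 6 lower, under library size or TMM on promoter regions 11 and 8, and with libraries summed 2 passed, RRM1 the 1 lead region among them. In HCC2935 4 of 64 member regions passed, 1 higher and 3 lower and none a lead region, where 8.31% of all regions and 8.5% of promoter regions passed. TMM on promoter regions gave 0 higher and 5 lower. Leaving out any 1 library of HCC2935 DTP or DTP + AZD5153 left 0 to 2. In HCC827 0 of 45 passed edgeR's test, none at an unadjusted p under 0.05, where 0% of all regions and 0% of promoter regions passed.

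AZD5153 without osimertinib was compared with DMSO in PC9 and H1975. In PC9 15 of 85 member regions passed, 6 higher and 9 lower, where 25.8% of all regions and 22.6% of promoter regions passed. GINS1 rose from 9.85, 7.35 and 6.45 CPM to 11.7, 11.8 and 13.6 (0.65), and PCNA by 0.27. MYBL2, the B-Myb factor of late genes, fell from 20.02, 19.01 and 20.8 CPM to 15.6, 15.1 and 15.01 (-0.38). Both genes had groups apart. MCM7 (-0.33), GINS2 (-0.29), POLE (-0.27) and E2F3 (-0.23) were also lower. With libraries summed 0 passed, DESeq2 called 2, and without DMSO replicate 1 or 3 or AZD5153 replicate 2 or 3 the count was 9, 7, 8 and 9. Leaving out any 1 of these 4 libraries also ended the calls of MYBL2 (-0.38 to -0.34) and GINS2 (-0.27 to -0.22). That of MCM7 was lost without DMSO replicate 3 or AZD5153 replicate 2 (-0.29 and -0.28), and that of PCNA without either of them or DMSO replicate 1 (0.18 to 0.26). Library size gave 6 higher and 5 lower, and loess offsets 6 and 4. Of the 5 lead regions that fell, only MCM7 was called under library size (-0.29) and none under loess offsets, with MYBL2 at -0.33 and -0.34, while GINS1 and PCNA were called under both.

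In H1975 42 of 75 member regions passed for AZD5153 minus DMSO, 28 higher and 14 lower, where 58.1% of all regions and 68.2% of promoter regions passed. These values rest on the libraries that stood apart above, and their part in the result was not tested. All 7 epithelial marker promoters were lower in the same comparison, with a median of -1.52. PCNA had 40.0, 39.7 and 41.3 CPM in DMSO and 64.1, 63.6 and 61.8 with AZD5153, without overlap, at 0.64 and at 0.049 with window medians removed. AURKB (0.74) and RRM1 (0.75) were at 0.23 and 0.24 with them removed, while FOXM1 was at 0.76 in both. CDT1 had 11.8, 12.4 and 10.1 CPM in DMSO and 5.29, 5.75 and 7.30 with AZD5153, without overlap, at -0.85 and at -0.95 with window medians removed. MCM7 (-0.57) and CCNE2 (-0.52) fell, and CCNE2 was at 0.13 with window medians removed. Scaling moved the split, to 22 higher and 21 lower by TMM on promoter regions 49 and 8 by library size, and 50 and 6 by loess offsets. With libraries summed 22 passed.

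**Figure D4:**
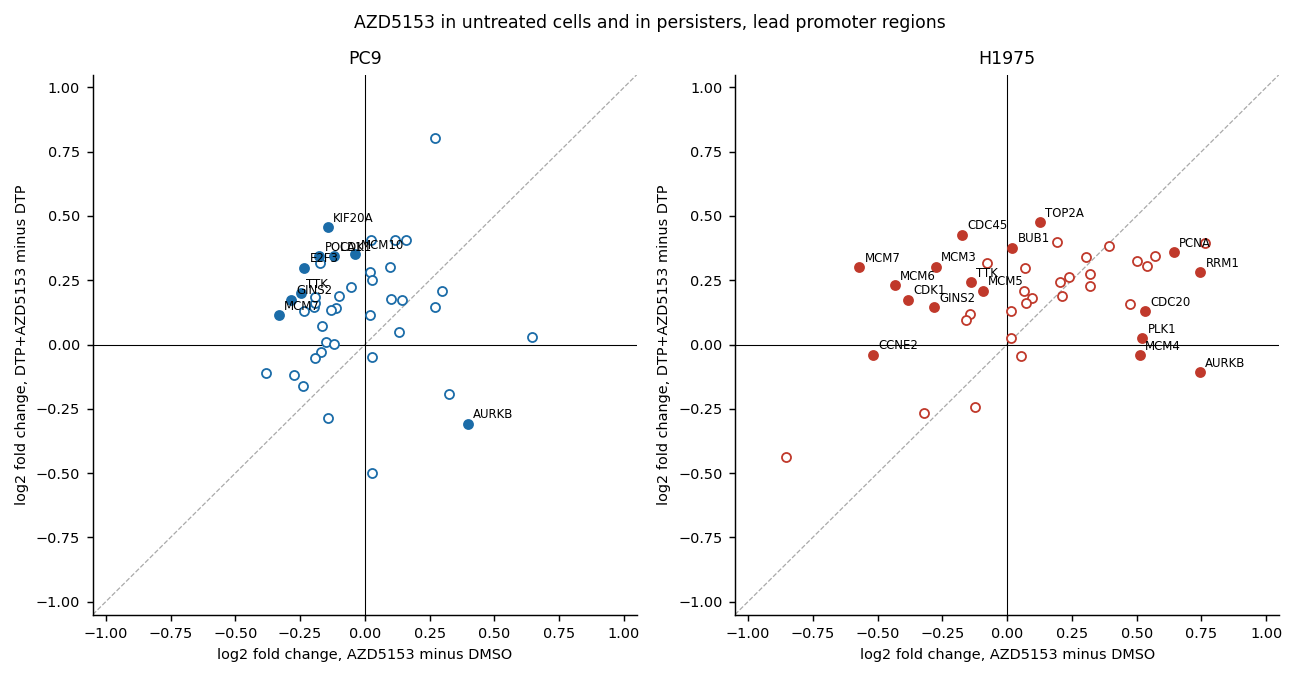
Effect of AZD5153 on each lead region in untreated cells (horizontal axis, AZD5153 minus DMSO) and in persisters (vertical axis, DTP + AZD5153 minus DTP), as log2 fold changes in PC9 and H1975. Labelled filled points passed the test of the difference between both effects. AURKB lies below and MCM7 above the diagonal in both lines.

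The effect of AZD5153 in persisters was tested against its effect in untreated cells by their interaction. In PC9 10 of 85 member regions passed, 8 higher and 2 lower, where 13.8% of all regions and 13.7% of promoter regions passed. In H1975 29 of 75 passed, 14 higher and 15 lower, where 42.5% of all regions and 52.3% of promoter regions passed. AURKB was lower in both lines, by 0.71 in PC9 and 0.85 in H1975. The PC9 call was lost without DMSO replicate 1 or 2, DTP replicate 1 or 3, AZD5153 replicate 1 or DTP + AZD5153 replicate 3 (-0.68 to -0.63). That of CDK1 in PC9 was lost without DMSO replicate 1 (0.34). In H1975 AURKB had 33.9, 29.3 and 34.0 CPM with AZD5153 alone, above all DMSO libraries (22.4, 17.8 and 18.5), and 13.9, 13.8 and 13.6 in DTP + AZD5153, below all DTP libraries (14.7, 15.4 and 14.4). MCM7, CDK1 and GINS2 were higher in both lines, at 0.45, 0.47 and 0.46 in PC9 and 0.87, 0.56 and 0.43 in H1975. The PC9 split changed to 3 higher and 4 lower by library size alone, 4 and 4 by TMM on promoter regions and 0 and 3 by loess offsets. The H1975 split changed to 6 and 31 by library size and to 3 and 39 by loess offsets. With libraries summed 0 and 8 passed. The H1975 values again rest on the AZD5153 libraries, and with window medians removed AURKB was at -0.27 and not called, and MCM7 was at 0.56 and called. CDK1 in H1975 was not called with window medians removed (0.22), by library size (0.24) or by loess offsets (0.11). GINS2 was not called in H1975 by library size or loess offsets, nor in PC9 by any of these or by TMM on promoter regions. MCM7 in PC9 was not called by library size or loess offsets, and CDK1 there by loess offsets (0.20).

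**Figure D5:**
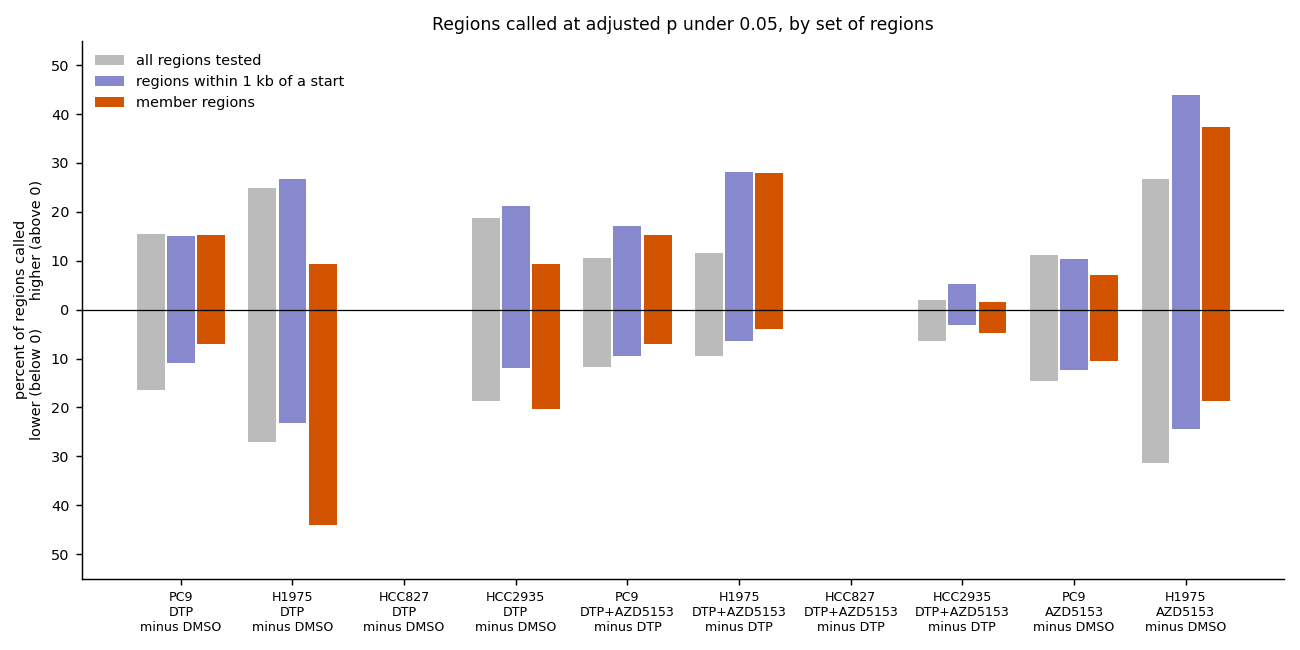
Percent of regions called higher (above 0) and lower (below 0) in each comparison, for all regions tested, all regions within 1 kb of a start and the member regions. In DTP minus DMSO, lower and higher calls were 44.0% and 9.33% of the member regions in H1975, against 23.1% and 26.8% of the promoter regions.

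Other genes of the pathway were read from 2 lists set by function. Of 13 E2F and DREAM partners, 3 of 11 with a lead region were higher and 0 lower in PC9 DTP cells. The counts were 2 and 5 of 11 for H1975, 0 and 0 of 9 for HCC827, and 2 and 0 of 11 for HCC2935. The share of all promoter regions that passed was 26% for PC9, 49.9% for H1975, 0% for HCC827 and 33.1% for HCC2935, and nothing particular to the lists is read from their counts. E2F5, a pocket-protein-bound E2F, rose by 0.55 in PC9 and 1.02 in HCC2935, and TFDP1, the dimer partner of E2Fs, fell by 0.61 in H1975. Of 31 other cell cycle genes, 5 of 28 were higher and 1 lower in PC9. The counts were 1 and 12 of 29 for H1975, 0 and 0 of 25 for HCC827, and 6 and 2 of 27 for HCC2935. SMC4, a condensin subunit, rose by 0.71 in PC9 and fell by 0.52 in H1975. With AZD5153 added to persisters, 8 of these 28 genes were higher and 0 lower in PC9, and 15 and 0 of 29 in H1975, where 26.7% and 34.5% of promoter regions passed. The lists were not recomputed under other scalings, and in H1975 the split of the member regions for this comparison turned to 4 higher and 9 lower by TMM on promoter regions.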

How the data were processed

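ATAC-seq of 42 libraries was analysed from the deposited tables. Per line, the authors deposited raw read counts in regions of equal width, of which an annotated subset carries gene symbols and distances to the start, and per library a peak list with fold enrichment and the q value as −log10. The submitters' processing notes name BWA 0.7.17, SAMtools 1.9, deepTools 3.4, MACS2 2.2.6, featureCounts 2.0.0, ChIPseeker 1.29.1 and hg38, without roles. The extraction protocol in the labels describes H3K27ac immunoprecipitation, while titles and design give ATAC-seq, and values were read as ATAC-seq. The supplied article does not describe these libraries.

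Groups came from the labels. Each line was fitted with edgeR 4.0.16 (R 4.3.3) on all its regions, with TMM factors, filterByExpr, group means, and the quasi-likelihood F test. The threshold was 0.05 after Benjamini-Hochberg adjustment across the line's tested regions. Log2 values used a prior count of 2, and 95% intervals came from the t distribution of the fit. The line-by-treatment interaction was fitted over regions with a reciprocal overlap of at least 50%. Named genes were a panel of 14 and, per comparison, up to 3 of the largest called rises and falls among lead regions. Members and lists were chosen with earlier results of these data known. Alternatives covered scaling, filter, tool (DESeq2 1.42.0, limma 3.58.1), replicate block, window medians of 10 Mb with at least 50 regions, summed libraries and leaving out each replicate. Same-numbered HCC827 libraries deviated from their group means together (correlation 0.1625 to 0.8474), so the block was printed there. In the other lines correlations were near 0 or of both signs. The fit was also run on counts simulated from the means of PC9 and HCC2935. The simulated dispersion was near that of HCC2935, so the run does not cover the spread of the other lines. Depth covers counting error only, and sequences came from RefSeq.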

Additional observations from a re-analysis of the deposited data

Results flagged for a closer look

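At 13 named promoters the change from DMSO to DTP differed between cell lines, where 37.2% of all matched regions did. The test was edgeR's line-by-treatment test over matched regions with Benjamini-Hochberg adjustment. It was not run by library size alone, with loess offsets or with window medians removed. In the fits by line, the HCC2935 calls of POLA1, RRM1, RRM2 and KIF11 were lost with window medians removed. The H1975 calls of E2F1, PCNA, CDC45, GINS1 and AURKB were lost by library size and by loess offsets. The adjusted p was 1.05e-05 for POLA1, 0.000271 for GINS1, 0.000321 for E2F8, 0.00145 for TYMS and 0.00171 for AURKB. It was 0.00668 for PLK1, 0.00735 for KIF11, 0.0146 for PCNA, 0.0189 for CDC6 and 0.0301 for CDC45. It was 0.031 for RRM2, 0.0354 for E2F1 and 0.0496 for RRM1. PCNA was at 0.43 on the log2 scale in PC9 and -0.19 in H1975, with 0.092 in HCC827 and -0.040 in HCC2935. CDC6 was at 0.23 in PC9 and -0.39 in H1975, with -0.11 in HCC827 and -0.057 in HCC2935. KIF11 was at 0.32 in H1975 and -0.45 in HCC2935.

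The effect of AZD5153 differed between persisters and untreated cells at further named promoters, by the interaction within a line. In H1975 the log2 difference of both effects was -0.85 for AURKB, -0.555 for MCM4, -0.498 for PLK1, -0.284 for PCNA, 0.557 for CDK1, 0.6 for CDC45, 0.664 for MCM6 and 0.871 for MCM7. These values rest on the H1975 libraries labelled AZD5153, whose part in them was not tested, and PCNA was at 0.348 with window medians removed and not called without DTP replicate 3 (-0.227). The calls of CDK1 (0.216), MCM6 (0.281) and AURKB (-0.27) were also lost with window medians removed. Under loess offsets those of CDK1, CDC45 and MCM6 were lost, and with libraries summed only AURKB and MCM7 among them were still called. In PC9 the difference was -0.705 for AURKB, 0.465 for CDK1, 0.519 for POLA1, 0.533 for E2F3 and 0.599 for KIF20A. The POLA1 call was lost without DMSO replicate 3, DTP replicate 1, AZD5153 replicate 2 or 3, or any 1 of the DTP + AZD5153 libraries (0.414 to 0.525). It was also lost by library size, TMM on promoter regions, loess offsets and removal of window medians. Under loess offsets the PC9 calls of CDK1, E2F3 and KIF20A were lost too, and with libraries summed none of the PC9 calls held. No group was tested for a library far from the others, since each held 3.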

How the results depend on the processing

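Counts of member regions called moved by over 1.5 times under these alternatives. For DTP minus DMSO, PC9 had 10 with DESeq2 and 5 with libraries summed, H1975 12 with libraries summed, HCC827 2 with libraries summed, and HCC2935 10 with DESeq2, 10 with libraries summed, 10 without a filter and 12 with window medians removed. For DTP + AZD5153 minus DTP, PC9 had 11 with DESeq2, 2 summed and 12 with loess offsets, H1975 12 with DESeq2, 13 with TMM on promoters, 0 summed, 8 with loess offsets and 14 without a filter, and HCC2935 0 with DESeq2, 1 summed and 0 without a filter. For AZD5153 minus DMSO, PC9 had 2 with DESeq2, 0 summed and 7 without a filter, and H1975 22 summed. For the interaction, PC9 had 1 with DESeq2, 0 summed, 3 with loess offsets and 2 without a filter, and H1975 8 summed. The test between lines gave 38 without HCC827, where 46.0% of all matched regions passed. Summing leaves fewer samples and also sets the dispersion to that of HCC2935, which is above that of PC9 and H1975 and below that of HCC827, and without a filter more regions are adjusted for. Otherwise the cause was not tested. The replicate block gave 18 calls for PC9, 39 for H1975, 2 for HCC827 and 20 for HCC2935 in DTP minus DMSO, and changed no other count by over 1.5 times.

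The median of member regions for DTP minus DMSO in PC9 was 0.0236 with DESeq2, -0.0211 with TMM on promoters, 0.0774 on annotated regions, 0.0902 by library size, 0.0891 with loess offsets, 0.0139 without a filter, 0.0687 with window medians removed and 0.0519 within 250 bases. In H1975 it was -0.214 with TMM on promoters, -0.0976 on annotated regions, 0.019 by library size and 0.00328 with loess offsets. In HCC2935 it was -0.23 with TMM on promoters, 0.0652 without a filter and -0.00309 within 250 bases. Leaving out 1 library gave 13 to 21 calls in PC9 for DTP minus DMSO (median 0.0256 to 0.0997), 33 to 39 in H1975 (-0.201 to -0.134), 13 to 17 in HCC2935 (-0.151 to -0.0193) and 0 in HCC827 (-0.105 to 0.212). For DTP + AZD5153 minus DTP it gave 15 to 19 in PC9, 15 to 24 in H1975 and 0 to 2 in HCC2935, for AZD5153 minus DMSO 7 to 11 and 39 to 45 in PC9 and H1975, and for the interaction 7 to 10 and 24 to 29.

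Of 178 named gene results, 3230 alternatives kept direction and side of the threshold in 2938, lost the call in 230, gained it in 54 and reversed in 8. Reversed with window medians removed were CCNE2 (0.134) for AZD5153 and PCNA (0.348) for the interaction in H1975, E2F8 (-0.843) for DTP in HCC2935 and RRM2 (0.0878) for DTP in PC9. Reversed with loess offsets in H1975 were CDC6 (-0.031) for DTP + AZD5153 minus DTP, and CCNA2 (-0.334), CDC6 (-0.31) and E2F8 (-0.383) for the interaction.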
